A study of Mus musculus with 12 samples.

Results

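Knockdown of Tet2 in granulocyte-macrophage progenitors (GMPs) was examined on 4 arrays, chosen as the GMP arrays without disease, out of the 12 arrays of the study. GMPs are the bone marrow progenitors that give rise to neutrophils and monocytes. The cells came from bone marrow of recipient mice repopulated with fetal liver cells on a C57BL/6 background, and each array held RNA of 1 genotype: wild-type, Tet2KD/KD (a hypomorphic, or knockdown, Tet2 genotype), Ezh2-/-, and Tet2KD/KDEzh2-/- (the double mutant). The other 8 arrays held the same 4 genotypes in LSK cells, the lineage-negative, Sca-1+, c-Kit+ fraction with stem and multipotent cells, and double mutant cells of both types from mice with a myelodysplastic/myeloproliferative disease (MDS/MPN) or refractory anaemia with excess blasts (RAEB). The labels do not say how Ezh2 was deleted, how many mice gave an RNA, whether RNA was pooled, or how donor cells were told from cells of the host.

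TET2 oxidises 5-methylcytosine in DNA, a step towards removing methylation, mostly at CpG dinucleotides. In blood-forming cells it is known for restraining self-renewal and for its part in the differentiation of monocytes and mast cells, and its gene is often mutated in myeloid malignancies. EZH2 is the catalytic subunit of Polycomb repressive complex 2, which methylates histone H3 at lysine 27 (H3K27), and its gene is mutated in some of the same diseases.

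Each genotype has 1 array, so no single value has a replicate error. Tet2 knockdown was therefore compared in 2 pairs of arrays: Tet2 knockdown against wild-type, and double mutant against Ezh2-null. Values are log2 signals relative to the 75th percentile of the array, so 0 is that percentile, and differences are log2 differences with knockdown minus without. A probe was well above background where the scanner software set that flag. The standard error (SE) comes from limma with Ezh2 genotype as a covariate, which leaves 1 residual degree of freedom. The SE mixes how far the 2 pairs of a gene differ with a spread shared over all genes, which has 2.77 prior degrees of freedom. A gene with nearly equal pairs therefore still has an SE near 0.15, as Ifngr2 does with pairs of 0.27 and 0.28. It does not measure the spread between mice, and an exact permutation test of 2 arrays against 2 cannot go below p = 0.333.

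The 4 arrays shared 1 slide, 47.9 to 49.0% of their gene spots were well above background, and no gene spot was saturated. All 12 GMP markers were measured: Mpo, myeloperoxidase, lay between 10.86 and 11.12, Elane, neutrophil elastase, between 8.55 and 9.07, Kit between 3.56 and 3.73, and Cd34 between 7.04 and 7.73. None of the 12 differed in the same direction in both pairs, against 48.5% of all genes. With normexp 2 were lower in both pairs, and with quantile scaling 2. Some moved in opposite directions in the pair of Ezh2 wild-type and the pair of Ezh2-null arrays. Ms4a3 differed by -0.49 and 0.71, Prtn3 by -0.32 and 0.76, Fcgr3 by -0.42 and 0.44, and Ctsg by -0.18 and 0.42. Of 16 markers of cells outside the GMP sort, 10 passed the filter on dim probes, and Il7r, Ms4a1, Ly6g and Slamf1 were among those that did not. Itgam lay between 4.87 and 4.98, Ly6a between 2.49 and 3.58, and Cd3e between 2.33 and 2.69. Of the 10, 4 were higher and 3 lower in both pairs, against 27.5% and 21.0% of all genes. Among them were Ly6a, an antigen of LSK cells (pairs 0.28 and 1.09), and the megakaryocyte and erythroid genes Pf4 (-1.67 and -1.15) and Gata1 (-0.54 and -0.36). The log2 of the summed signals of the 10, most of it from the brighter genes, was 5.56 to 5.76 on the 4 arrays. The part of such cells in the results was not tested. Sex-linked transcripts split the arrays across the pairs. Xist, which coats the inactive X, read 1.63 in the wild-type and 1.17 in the double mutant, against -6.07 with Tet2 knockdown and -4.36 without Ezh2. The Y-linked Eif2s3y had the reverse pattern, at -6.32 and -6.20 in the first 2 and 2.68 and 2.54 in the others. The sex difference thus had opposite signs in the 2 pairs; its part in other differences was not tested.

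Tet2 itself checked the labels. Its brightest probe read 1.57 in wild-type and 1.51 in Ezh2-null GMPs, against -0.64 in Tet2 knockdown and -1.01 in double mutant GMPs. Both knockdown arrays lay below both others, by 2.21 and 2.52 within the pairs, and the mean difference was -2.36 (SE 0.17). A second Tet2 probe read -0.12, -2.35, -0.10 and -2.58 in the same order of wild-type, Tet2 knockdown, Ezh2-null and double mutant, and so gave pair differences of -2.24 and -2.48. The Ezh2 probe read 3.24, 3.40, 3.35 and 3.12 in that order, so the arrays with and without the Ezh2-null label overlapped; the labels do not say which part of Ezh2 was deleted, so this probe does not check that label. On the arrays of diseased double mutant GMPs the brightest Tet2 probe read -1.77 in MDS/MPN and -3.09 in RAEB. In LSK cells the pair differences were -2.05 and -0.91. Tet2 transcript was thus measured well above background on all 4 GMP arrays, and its level with the knockdown was low but not absent. The adjusted p of this difference was 0.642 by limma with Benjamini-Hochberg adjustment over all genes. It passed 0.05 with normexp background correction (adjusted p = 0.00571, difference -1.88), with a trended, robust spread (adjusted p = 0.0233) and in a fit of the 8 arrays without disease that had a Tet2 by Ezh2 term (adjusted p = 7.49e-09); over all alternatives the adjusted p ran from 7.49e-09 to 1.00.

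**Figure D1:**
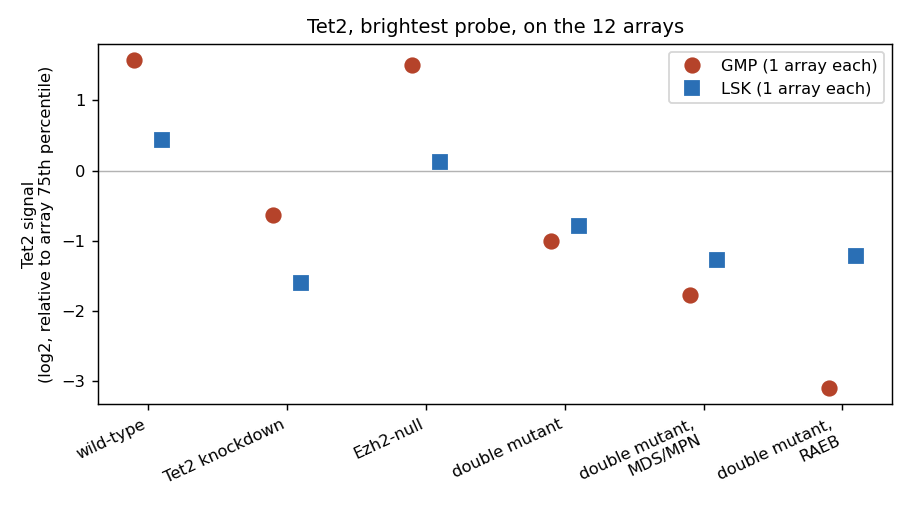
Tet2 signal of the brightest probe (log2, relative to the array's 75th percentile) on each of the 12 arrays, by genotype and disease along the horizontal axis, with circles for GMPs and squares for LSK cells. The 2 GMP points without Tet2 knockdown lie at 1.57 and 1.51, and the other 4 GMP points lie between -0.64 and -3.09.

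Over 12538 genes tested, limma called 0 genes higher (0% of those tested) and 0 lower (0%) with Tet2 knockdown in GMPs at an adjusted p under 0.05. The lowest adjusted p was 0.642, and 508 genes (4.05%) had an unadjusted p under 0.05, 247 higher and 261 lower. The same model on 8 arrays, with LSK cells added and the effect taken within GMPs, called 3 genes, Gm11627, Pde9a and Gabra2. Adding a Tet2 by Ezh2 term to it called 85 genes, 31 higher and 54 lower, with 1 spread shared by all genes. Both pairs had the same sign for 3443 genes higher (27.5%) and 2639 lower (21.0%), together 48.5%, which is the background for the gene groups. Both knockdown arrays lay above both others for 17.7% of genes and below both for 13.5%. The median difference over all genes was 0.02. A difference of at least 2-fold in the same direction in both pairs, with the brighter arrays well above background, was found for 17 genes higher (0.136%) and 20 lower (0.160%). Another 50 genes (0.399%) were at least 2-fold apart in both pairs but in opposite directions. Ezh2 loss in the same 4 arrays gave 231 genes higher (1.84%) and 23 lower (0.183%) by the same rule. Of the 17 genes, 4 were well above background on all 4 arrays, as were 7 of the 20; with normexp, which adds 50 units to every signal, 1 gene higher (Atp9a) and 1 lower (Tet2) met the 2-fold rule.

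**Figure D2:**
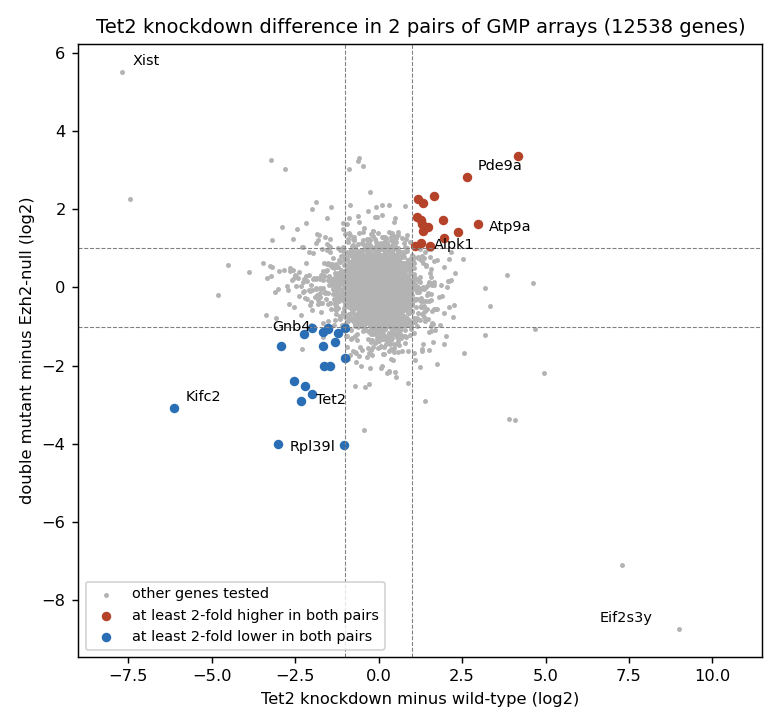
Each point is 1 of 12538 genes, placed by its log2 difference in the pair of Tet2 knockdown and wild-type (horizontal) and in the pair of double mutant and Ezh2-null (vertical); dashed lines mark 2-fold. The 17 red and 20 blue genes pass 2-fold in both pairs in the same direction, and the 3 genes farthest from the centre, the sex-linked Eif2s3y, Ddx3y and Xist, have opposite signs in the pairs.

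Among the genes higher with the knockdown, Alpk1, a kinase that senses a bacterial sugar metabolite, read -2.06 in wild-type and -2.32 in Ezh2-null GMPs, against -0.74 with Tet2 knockdown and -0.88 in the double mutant. The 2 groups did not overlap, and the pairs were nearly alike at 1.32 and 1.44 (mean 1.38, SE 0.15). Sdc2, the heparan sulfate proteoglycan syndecan-2, read -2.80, -1.49, -3.71 and -2.09 in wild-type, Tet2 knockdown, Ezh2-null and double mutant GMPs, a mean difference of 1.46 (SE 0.17). Plekhh3 read -2.35, -1.08, -1.97 and -0.83 in that order, a mean difference of 1.21 (SE 0.15). Every one of these 3 genes was measured on all 4 arrays, and in each the lower knockdown array was above the higher array without knockdown.

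Atp9a, an endosomal member of the P4-ATPase family, was the brightest of the 17 genes. It read 1.43 in wild-type and 1.22 in Ezh2-null GMPs, against 4.40 with Tet2 knockdown and 2.85 in the double mutant, so its pairs were 2.97 and 1.64. A second measured Atp9a probe did not share this, with pair differences of -0.24 and 0.03, so the difference belongs to 1 of 2 probes.

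Several genes higher with the knockdown were dim. Upb1, which carries out the last step of pyrimidine degradation, read -3.37 in wild-type and -4.64 in Ezh2-null GMPs, against -1.72 and -2.30 with the knockdown (mean difference 2.00, SE 0.23). Saa3, an acute-phase protein that macrophages make, read -3.31 and -3.99 against -1.98 and -1.83 (mean 1.74, SE 0.26). Maob, monoamine oxidase B, read -3.41 and -3.90 against -2.21 and -1.64 (mean 1.73, SE 0.31). Pgap4, a glycosyltransferase that acts on GPI anchors, differed by Ezh2 genotype too: it read -4.73 in wild-type, -2.76 with the Tet2 knockdown, -2.85 without Ezh2 and -1.57 in double mutant GMPs, and the 2 groups nearly met. These 4 genes were well above background on 3 of the 4 arrays.

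For 4 more, no array without the knockdown was well above background, so a fold change is a lower bound, set against the lowest signal well above background on those arrays. Pde9a, a phosphodiesterase that breaks down cyclic GMP, was at least 1.69-fold higher, with measured values of -6.16 and -6.02 without the knockdown and -3.51 and -3.20 with it. The bound was at least 1.23-fold higher for Mesp2, a transcription factor of somite formation. It was at least 1.51-fold for Saysd1 and at least 1.52-fold for B4galnt2, a glycosyltransferase. Detection on both knockdown arrays was required by the rule for named genes. Detection on neither of the others is how these 4 were set apart, so the pattern is not a separate result.

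Among the genes lower with the knockdown, Gnb4, a G protein beta subunit, read -1.61 in wild-type and -1.17 in Ezh2-null GMPs, against -3.28 with Tet2 knockdown and -2.65 in the double mutant (mean difference -1.57, SE 0.15). Olr1, the scavenger receptor LOX-1 for oxidised LDL, read -1.24 and -0.86 against -2.54 and -2.25 (mean -1.35, SE 0.15). Msx3, a homeobox gene, read -1.83 and -1.87 against -3.05 and -3.04 (mean -1.19, SE 0.15). In all 3 the values within a group lay closer together than the groups did, and every array was well above background.

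Pf4, the platelet chemokine CXCL4, was at 0.80 in wild-type and 0.61 in Ezh2-null GMPs and at -0.87 and -0.54 with the knockdown (mean -1.41, SE 0.20). The arrays of diseased double mutant GMPs stood at the other end, at 3.00 in MDS/MPN and 4.70 in RAEB. Il22ra2, the soluble decoy receptor of interleukin-22, read 1.03 and 0.31 against -0.48 and -0.72 (mean -1.27, SE 0.19). Padi4, which citrullinates histones in neutrophils, read 1.16 and 0.40 against 0.16 and -0.63 (mean -1.02, SE 0.15). A second measured Padi4 probe had pair differences of -0.06 and -0.78, so only the brighter probe was 2-fold lower in both pairs. For Pf4 and Il22ra2 the groups did not overlap, and for Padi4 the Tet2 knockdown array came close to the Ezh2-null array. These 3 complete the genes 2-fold lower on 4 measured arrays and lie outside the 12 chosen by the rule for named genes; they are named because every array measured them.

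Tmem121 and Hebp2, a haem-binding protein, were measured on 3 arrays. Tmem121 read -3.33, -5.33, -0.66 and -3.38 in wild-type, Tet2 knockdown, Ezh2-null and double mutant GMPs, so its double mutant value lay at the wild-type value and the groups almost overlapped. Its other measured probe had the same signs but smaller pair differences, -0.52 and -0.64. Hebp2 read -2.06, -4.31, -0.99 and -2.19 in the same order. In the remaining 7 named genes no knockdown array was well above background. Kifc2, a kinesin motor, was at least 7.46-fold lower with the knockdown, at -0.09 in wild-type and -2.37 in Ezh2-null GMPs, against -6.21 and -5.46 with the knockdown. Rpl39l, a ribosomal protein paralogue, was at least 3.05-fold lower, from -3.07 and -1.96. Acpp, prostatic acid phosphatase, was at least 2.45-fold lower, from -2.83 and -2.84. The bounds were at least 2.00-fold lower for Nlrp4c, 1.62-fold for Gabra2, a GABA receptor subunit, 1.19-fold for Kcnj10, a potassium channel, and 1.09-fold for Ankrd33b. With normexp the 2 pairs of Gabra2 no longer shared a sign (-0.21 and 0.09). Rpl39l and Nlrp4c have close paralogues that a probe may also detect.

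**Figure D3:**
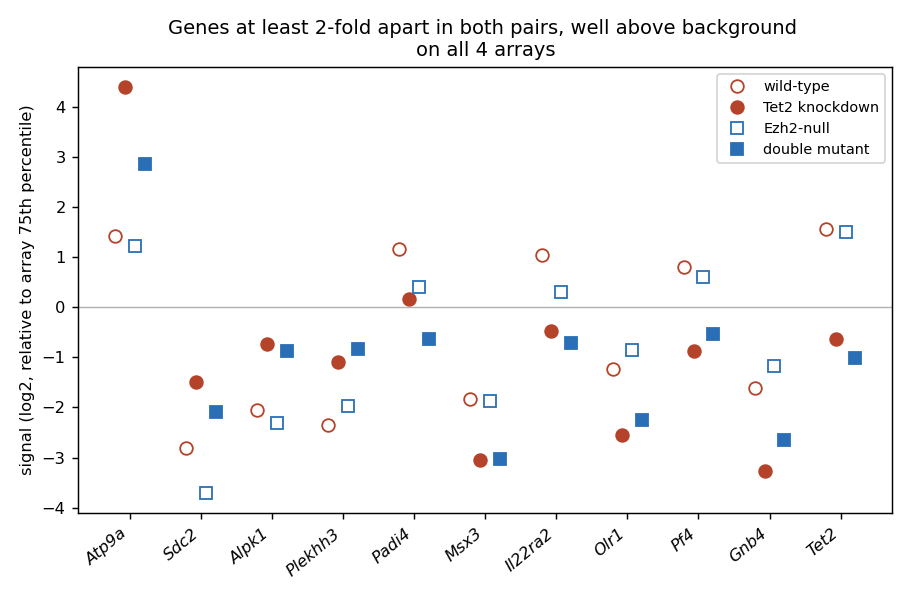
Log2 signal relative to the array's 75th percentile for the 11 genes at least 2-fold apart in both pairs and well above background on all 4 GMP arrays, with open symbols without and filled symbols with Tet2 knockdown, and circles and squares for Ezh2 wild-type and Ezh2-null. The 4 genes on the left have both filled symbols above both open ones, and in the 7 on the right both filled symbols lie below the open ones.

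Because TET2 acts on methylated CpG, the 250 bases before the start site are shown for 6 genes that carry the gene groups described here, 3 higher and 3 lower with the knockdown. They are RefSeq sequences of the GRCm38.p6 assembly, 5′ to 3′ on the gene's strand, with each CpG in capitals. They show that these genes differ widely in CpG content; methylation was not measured.
Upb1 (chr10:75406661-75406910, plus strand): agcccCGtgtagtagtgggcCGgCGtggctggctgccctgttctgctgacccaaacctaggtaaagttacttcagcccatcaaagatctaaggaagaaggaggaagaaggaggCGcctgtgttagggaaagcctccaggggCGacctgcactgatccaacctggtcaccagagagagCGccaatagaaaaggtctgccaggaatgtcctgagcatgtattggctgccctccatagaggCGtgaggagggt
Lgals3 (chr14:47373610-47373859, plus strand): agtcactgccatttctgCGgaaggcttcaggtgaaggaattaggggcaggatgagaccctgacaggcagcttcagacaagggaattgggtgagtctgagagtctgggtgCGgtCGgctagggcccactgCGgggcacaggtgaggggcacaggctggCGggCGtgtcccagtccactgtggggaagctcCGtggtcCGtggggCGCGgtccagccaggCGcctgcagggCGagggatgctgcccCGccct
H2-Eb1 (chr17:34305617-34305866, plus strand): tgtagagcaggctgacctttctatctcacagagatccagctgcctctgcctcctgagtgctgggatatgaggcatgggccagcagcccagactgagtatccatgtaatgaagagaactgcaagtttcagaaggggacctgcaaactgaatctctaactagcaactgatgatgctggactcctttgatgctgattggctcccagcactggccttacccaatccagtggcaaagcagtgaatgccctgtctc
Pf4 (chr5:90772185-90772434, plus strand): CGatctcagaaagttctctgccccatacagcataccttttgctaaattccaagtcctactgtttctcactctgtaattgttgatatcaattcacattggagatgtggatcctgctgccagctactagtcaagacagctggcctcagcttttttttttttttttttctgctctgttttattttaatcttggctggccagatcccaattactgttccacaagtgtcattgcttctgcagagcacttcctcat
Hoxa7 (chr6:52218574-52218823, minus strand): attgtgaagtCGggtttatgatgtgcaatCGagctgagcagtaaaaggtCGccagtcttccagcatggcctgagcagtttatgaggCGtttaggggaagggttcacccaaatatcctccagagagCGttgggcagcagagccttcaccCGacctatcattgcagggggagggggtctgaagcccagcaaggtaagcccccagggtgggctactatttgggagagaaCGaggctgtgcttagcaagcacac
Hoxa9 (chr6:52227371-52227620, minus strand): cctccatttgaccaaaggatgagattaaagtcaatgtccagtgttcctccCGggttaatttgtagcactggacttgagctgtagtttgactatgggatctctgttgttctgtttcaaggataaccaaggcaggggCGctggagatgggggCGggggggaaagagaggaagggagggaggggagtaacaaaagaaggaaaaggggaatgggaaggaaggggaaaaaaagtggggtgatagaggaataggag
Upb1 had 7 CpG, Lgals3 13, H2-Eb1 0, Pf4 1, Hoxa7 7 and Hoxa9 3. Of the promoters in the RefSeq table, 31.8% had at least as many as Lgals3 and 19.4% had no more than Pf4. Among genes 2-fold higher in both pairs, 13 of 17 had a promoter in the table, and their median was 7 CpG in 250 bases. Among the 20 lower, 16 had one, with a median of 10. The median over the 10074 tested genes with a promoter was 15, with quartiles of 8 and 22, and the difference from it was not tested. Of the 17 and the 20 genes, 9 each were well above background on 2 arrays, and the part of signal level in the CpG counts was not tested.

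Genes of DNA methylation and demethylation, the machinery in which TET2 works, had no common direction. Of 27 tested, 6 were higher and 9 lower in both pairs, Tet2 among the latter, and the median difference was -0.03. The shares of all genes were 27.5% higher and 21.0% lower. Tet3, which catalyses the same reaction, read -0.87 in wild-type and -0.89 in Ezh2-null GMPs against -1.15 and -0.98 with the knockdown (mean difference -0.18, SE 0.15). Tet1 was not above the filter on dim probes. Dnmt3b, a methyltransferase that sets new methylation, read 3.61 and 3.50 against 3.38 and 3.39 (mean -0.17, SE 0.15), and 1 of its 2 other measured probes did not share the sign in both pairs. Ogt, a glycosyltransferase that binds TET proteins, read -0.66 and -0.83 against -0.49 and -0.58 (mean 0.21, SE 0.15), a sign its other measured probe did not share. Dnmt3l, a cofactor of methyltransferases named after its values were seen, read -0.85 in wild-type, -3.11 with Tet2 knockdown, -1.16 without Ezh2 and -1.02 in double mutant GMPs. Its pairs were -2.26 and 0.15, and the mean of -1.06 (SE 0.64) was -0.01 when the Tet2 knockdown array and the Ezh2 term were left out. The differences of Tet3, Dnmt3b and Ogt were less than 2 SE from 0.

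Polycomb subunits had no common direction. Of 12 PRC2 subunits tested, 4 were higher and 3 lower in both pairs, against 27.5% and 21.0% of all genes, with a median of 0.03. Phf19, an accessory subunit that recruits PRC2, read 1.04 and 1.21 without and 1.52 and 1.51 with the knockdown (mean 0.39, SE 0.15). Suz12, a core subunit, read 2.53 and 2.64 against 2.35 and 2.23 (mean -0.29, SE 0.16). Jarid2 read 1.48 and 1.69 against 1.29 and 1.44 (mean -0.22, SE 0.15), with groups that nearly met. Epop read 2.95 and 3.57 against 3.23 and 3.82 (mean 0.26, SE 0.15), so its groups overlapped. Of 19 PRC1 subunits, 2 were higher and 6 lower, with a median of 0.03.

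Monocyte and macrophage genes were higher more often than lower. Of 26 tested, 11 were higher and 2 lower in both pairs, against 27.5% and 21.0% of all genes, and the median difference was 0.37. The median was 0.07 in the pair of Ezh2 wild-type arrays and 0.45 in the Ezh2-null pair. Lgals3, galectin-3, read 2.00 in wild-type and 2.30 in Ezh2-null GMPs against 2.94 and 3.47 with the knockdown (mean 1.05, SE 0.16). Pld4, an exonuclease of phagocytes, read 1.42 and 0.82 against 1.99 and 1.82 (mean 0.79, SE 0.18). Adgre1, a surface receptor of macrophages, read 0.39 and 0.09 against 1.18 and 0.72 (mean 0.71, SE 0.15), and its other measured probe had the same signs. Ctss, the protease cathepsin S, read 3.12 and 2.31 against 3.64 and 2.79, so the groups overlapped although both pairs were near 0.50. Cd14, the co-receptor for lipopolysaccharide, read 2.50 and 2.85 against 3.37 and 3.31 (mean 0.67, SE 0.18). The groups did not overlap for Lgals3, Pld4, Adgre1 and Cd14; over the list they stood apart for 9 genes higher and 1 lower, against 17.7% and 13.5% of all genes. More or fewer cells of a type cannot be told apart from more or less RNA per cell in such bulk samples. The log2 of the summed signals of the list was 10.02 in wild-type, 10.23 with the Tet2 knockdown, 9.75 without Ezh2 and 10.34 in double mutant GMPs, higher with the knockdown in both pairs. None of the 26 passed the adjusted threshold, and counts of 10 or 11 higher and 2 lower were found with quantile or normexp scaling.

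Genes of dendritic cells and MHC class II, of the interferon response and of inflammation also had more members higher than lower in both pairs. The shares of all genes were 27.5% and 21.0%. Of 15 dendritic cell and MHC class II genes, 8 were higher and 2 lower in both pairs (median 0.14). H2-Eb1, a class II beta chain, read -4.20 and -3.31 without and -2.45 and -2.60 with the knockdown (mean 1.23, SE 0.31), measured on 3 arrays. H2-Oa and H2-DMa, which act in loading class II molecules, had mean differences of 0.35 (SE 0.15) and 0.34 (SE 0.16). H2-Ab1, another class II beta chain, went the other way, from 3.64 and 3.52 to 3.18 and 3.26 (mean -0.36, SE 0.15). The class II genes therefore did not share 1 direction.

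Of 42 interferon response genes, 18 were higher and 5 lower in both pairs, with a median of 0.20. The medians of the pairs were -0.02 and 0.38. Usp18, which removes the ubiquitin-like ISG15 and restrains interferon signalling, read -2.07 in wild-type and -0.38 in Ezh2-null GMPs against -0.89 and 0.39 with the knockdown (mean 0.97, SE 0.18); the arrays differed more by Ezh2 genotype than by the knockdown, and the groups overlapped. Gbp2, a guanylate-binding protein, read 0.24 and -0.61 against 0.68 and 0.57 (mean 0.81, SE 0.24). Ifi27l2a read 2.27 and 3.84 against 2.77 and 4.44 (mean 0.55, SE 0.15), with overlap. Both of its pairs were positive, at 0.50 and 0.60. In fits that had no Ezh2 term, the difference was -0.23 without the wild-type array and -0.28 without the double mutant array. Samd9l, a growth-restraining interferon-induced gene, was lower: it read -0.99 and -1.08 without and -1.94 and -1.97 with the knockdown (mean -0.92, SE 0.15), with no overlap, and its other measured probe had the same signs.

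Of 34 inflammatory response genes, 11 were higher and 1 lower in both pairs (median 0.21, with pair medians of 0.41 and 0.04). These are 32.4% and 2.94%, against 27.5% and 21.0% of all genes, so the higher share was near that of all genes. The median of all genes was -0.01 in the Ezh2 wild-type pair and 0.06 in the Ezh2-null pair, so the list did not stand out in the latter. Tnf, tumour necrosis factor, read 0.75 in wild-type and 0.64 in Ezh2-null GMPs against 2.03 and 1.35 with the knockdown (mean 0.99, SE 0.21). Cxcl2, a neutrophil-attracting chemokine, read -1.84, 0.43, -1.24 and -0.88 in wild-type, Tet2 knockdown, Ezh2-null and double mutant GMPs, so most of its mean of 1.32 (SE 0.52) came from 1 pair. Cxcr4, the receptor that holds cells in the marrow, read 2.13 and 2.18 against 2.49 and 2.68 (mean 0.43, SE 0.15). Immediate-early genes, which respond to stimulation and handling within minutes, had opposite medians in the pairs, 0.87 and -0.49. Of 28 tested, 4 were higher in both pairs and 0 lower. Among them Junb read -0.98 and -1.58 against -0.22 and -1.19, Rhob 2.08 and 1.42 against 2.58 and 1.66, Dusp2 6.00 and 5.53 against 7.03 and 5.71, and Ier2 1.97 and 1.45 against 3.06 and 1.49. The groups of all 4 overlapped, the Tet2 knockdown array stood above the other 3, with normexp the pairs of Ier2 did not share a sign, and the other measured Rhob probe had pairs of 0.71 and -0.33. The part of this response in the inflammatory genes was not tested.

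Transcription factors and granule genes of the neutrophil line were divided. Of 25 myeloid transcription factors, 6 were higher and 4 lower in both pairs, against 27.5% and 21.0% of all genes (median 0.11). Irf5, an activator of inflammatory genes in macrophages, read 0.54 and 0.90 against 1.26 and 1.36 (mean 0.59, SE 0.16), and Id1 read 2.15 and 2.94 against 3.21 and 3.29 (mean 0.71, SE 0.23). Cebpe, a factor of late granulocyte maturation, read 6.02 and 6.31 against 5.61 and 5.95 (mean -0.38, SE 0.15). Primary granule genes, which define the GMP and promyelocyte stages, had 2 higher and 2 lower of 17, with pair medians of opposite sign, -0.24 and 0.39. Lyz2, lysozyme of myeloid cells, read 1.42 and 1.12 against 1.81 and 2.02 (mean 0.65, SE 0.20), and its near-identical paralogue Lyz1 read 4.09 and 4.30 against 4.41 and 4.83 (mean 0.42, SE 0.16). Of 16 late neutrophil genes, 2 were higher and 3 lower. Ltf, lactoferrin, read -2.46, -2.77, -3.07 and -4.62 in wild-type, Tet2 knockdown, Ezh2-null and double mutant GMPs, and Mmp8, a collagenase, read -1.22, -0.94, -1.23 and -0.58. Of 42 proliferation genes, 6 were higher and 4 lower in both pairs, but 15 were lower with quantile and 14 with normexp scaling.

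Genes of mast cells, basophils and eosinophils were lower more often. Of 23 tested, 0 were higher and 10 lower in both pairs, against 27.5% and 21.0% of all genes, and the median difference was -0.53. The pairs differed here, with medians of -0.54 for the Ezh2 wild-type and -0.08 for the Ezh2-null arrays. Ms4a2, the beta chain of the IgE receptor, read -2.67 in wild-type and -1.77 in Ezh2-null GMPs against -4.17 and -2.84 with the knockdown (mean -1.29, SE 0.18). Il5ra, the interleukin-5 receptor of eosinophils, read -2.67 and -2.01 against -3.50 and -2.53 (mean -0.67, SE 0.17). Gata1, a transcription factor these cells share with the erythroid and megakaryocyte lines, read 0.60 and 0.75 against 0.06 and 0.39 (mean -0.45, SE 0.15). Of these 3 genes, Gata1 alone had groups that did not overlap with every array measured.

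Eosinophil granule genes differed mainly in the pair of Ezh2 wild-type arrays. Epx, eosinophil peroxidase, read 2.25 in wild-type, 0.49 with the Tet2 knockdown, 2.10 without Ezh2 and 1.85 in double mutant GMPs. Prg2, major basic protein, read 5.65, 3.77, 5.42 and 5.41 in that order. Ear2 and Rnase2a, eosinophil ribonucleases named after their values were seen, read 3.18, -0.04, 2.48 and 2.78, and 2.27, -1.06, 2.35 and 2.59. In all 4 the Tet2 knockdown array stood alone below the other 3, and the double mutant array differed from the Ezh2-null array by -0.25 to 0.30. The log2 of the summed signals of the whole list was 7.56 in wild-type, 7.04 with the Tet2 knockdown, 7.66 without Ezh2 and 7.55 in double mutant GMPs. The ribonucleases are close paralogues whose probes may detect one another.

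Stem cell, lymphoid-primed and HoxA genes also had more members lower than higher in both pairs. The shares of all genes were 27.5% higher and 21.0% lower. Of 10 HoxA genes and cofactors tested, 2 were higher and 6 lower in both pairs (median -0.17). Hoxa7, a homeobox gene of early progenitors, read 3.22 in wild-type and 3.07 in Ezh2-null GMPs against 2.07 and 2.34 with the knockdown (mean -0.94, SE 0.18). Hoxa9, which sustains self-renewal and drives some leukaemias, read -1.21 and -1.44 against -2.29 and -2.07 (mean -0.85, SE 0.19), and its other measured probe had the same signs. Hoxa3 read -2.68 and -2.49 against -3.46 and -3.14, and Hoxa5 -2.98 and -2.53 against -3.46 and -3.18. These 4 genes of 1 cluster were the members whose groups did not overlap, all lower, against 13.5% of all genes; with normexp the pairs of Hoxa3 did not share a sign, and 4 of the 10 genes were lower in both pairs.

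Of 28 stem cell genes, 3 were higher and 10 lower in both pairs (median -0.12). Msi2, an RNA-binding protein of stem cells, read 3.39 and 3.52 without and 2.97 and 2.89 with the knockdown (mean -0.53, SE 0.16). Abcb1a, a drug efflux pump, read -3.60 and -3.40 without the knockdown and was not well above background on either knockdown array, at least 1.54-fold lower. Tie1, an endothelial and stem cell receptor, went the other way, from -1.62 and -2.66 to -0.86 and -1.52 (mean 0.94, SE 0.18). Of 16 lymphoid-primed genes, 2 were higher (12.5%) and 9 lower (56.2%) in both pairs (median -0.14), and with normexp 7 were lower. Ets1 read -1.34, -2.66, -1.12 and -1.48 in wild-type, Tet2 knockdown, Ezh2-null and double mutant GMPs, and its other measured probe did not have the same signs. Rag2, which cuts antigen receptor genes, read -3.20, -3.47, -3.28 and -5.35, and Lck, a T cell kinase, 0.48, -0.50, -0.10 and -0.31. For each of these 3 genes most of the difference came from 1 pair.

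Platelet and megakaryocyte genes had no common direction, with 5 higher and 4 lower of 20 and a median of 0.01. The shares of all genes were 27.5% higher and 21.0% lower. Besides Pf4, Treml1, a receptor of platelet granules, read -1.94 and -2.15 without and -2.61 and -2.86 with the knockdown (mean -0.69, SE 0.15). Rab27b, which acts in granule secretion, was at least 1.57-fold lower, with neither knockdown array well above background. Selp, P-selectin, was higher, from 0.65 and 0.38 to 1.00 and 1.22 (mean 0.59, SE 0.19). Erythroid genes had 4 higher and 3 lower of 19. Of 38 receptors and signalling genes of myeloid cytokines, 9 were higher and 12 lower (median -0.02). Csf2ra, the GM-CSF receptor alpha chain, read 5.01 and 4.77 against 4.01 and 4.46 (mean -0.66, SE 0.23). Il10ra, the interleukin-10 receptor, read 0.40 and -0.25 against 0.97 and 0.34 (mean 0.58, SE 0.15), and Ifngr2, of the interferon-gamma receptor, 2.40 and 2.33 against 2.67 and 2.61 (mean 0.28, SE 0.15).

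The lists not described so far gave these counts of genes higher and lower in both pairs, against 27.5% and 21.0% of all genes. B-lymphoid genes had 1 and 4 of 9, and T and NK cell genes 2 and 4 of 11. Stromal and endothelial genes had 5 and 1 of 12, TGF-beta and BMP signalling 5 and 4 of 20, and HoxB genes 0 and 1 of 3. Leukaemia genes and oncogenes had 3 (7.89%) and 13 (34.2%) of 38, with a median of -0.05. Targets of p53 had 6 and 5 of 25, inhibitors of cyclin-dependent kinases 1 and 1 of 6, heat shock genes 3 and 4 of 24, and redox genes 11 and 5 of 35. Limma called 0 members of any list at the adjusted threshold.

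**Figure D4:**
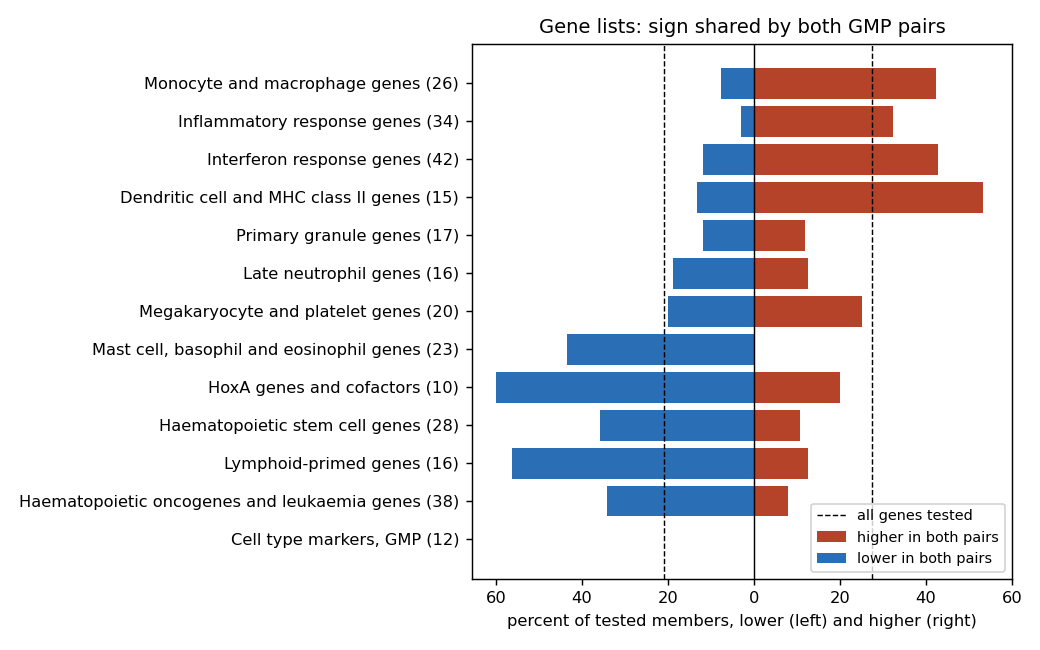
Percent of the tested members (number in brackets) of 13 gene lists that were lower (blue, left) or higher (red, right) in both GMP pairs with Tet2 knockdown; dashed lines mark 21.0% and 27.5%, the shares of all genes tested. Monocyte, interferon and MHC class II lists extend to the right, and mast cell and eosinophil, HoxA, stem cell and lymphoid-primed lists to the left. The inflammatory list has a right bar of 32.4%, near the line of all genes, and a short left bar of 2.94%. The 12 GMP markers have no bar on either side.

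LSK cells gave a second set of 2 pairs that shares no array with the GMP comparison, although the same mice may have given both cell types. Over all genes, 16.8% were higher and 17.1% lower in both LSK pairs. Of the 17 genes 2-fold higher in GMPs, 8 were higher in both LSK pairs, 1 was lower in both and 8 were mixed. Alpk1 and Upb1 passed 2-fold in both LSK pairs as well, with LSK differences of 1.52 and 3.35 for Alpk1 and 3.31 and 2.58 for Upb1. The filter on dim probes used GMP arrays only. Without the knockdown, both genes lay below the lowest signal well above background on the LSK arrays. Alpk1 read -4.39 in wild-type and -6.20 in Ezh2-null LSK cells, and Upb1 -6.12 and -5.25, so the sizes of these differences were not measured. Sdc2 had 0.46 and 1.38 there, Plekhh3 0.67 and 1.31, and Atp9a 3.34 and -0.33. Of the 19 genes 2-fold lower other than Tet2, 8 were lower in both LSK pairs, 1 higher in both and 10 mixed, and none passed 2-fold in both. The counts for both directions include genes below the lowest signal well above background on every LSK array compared. Maob, counted as higher, Nlrp4c, counted as lower, and Saa3, Gabra2 and Ms4a2, counted as mixed, were such genes. The LSK signs of such genes are no measure of an effect there. Pf4 had -0.90 and -1.01 in LSK cells, Il22ra2 -0.78 and -1.15, Gnb4 -0.94 and -0.21, and Olr1 0.06 and -0.03. Olr1 read -6.16, -6.10, -6.28 and -6.30 in wild-type, Tet2 knockdown, Ezh2-null and double mutant LSK cells. These lie below the lowest signal well above background, so its LSK differences are no measure of an effect there.

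**Figure D5:**
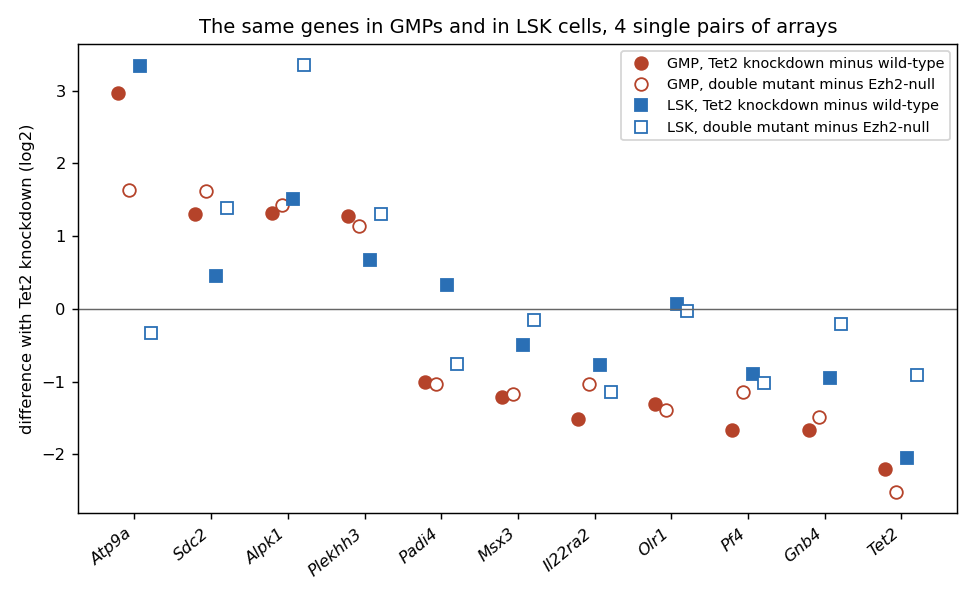
Log2 difference with Tet2 knockdown for the 11 genes at least 2-fold apart in both GMP pairs and measured on all 4 GMP arrays, with circles for the 2 GMP pairs and squares for the 2 LSK pairs, each point being 1 array minus another. For Alpk1 all 4 points lie at 1.32 or above, and the LSK points of Olr1 lie at 0.06 and -0.03. Olr1 was below the lowest signal well above background on every LSK array shown, as was Alpk1 on the LSK arrays without knockdown.

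The difference between the Tet2 effects in GMPs and LSK cells was tested as an interaction over the 8 arrays without disease. Limma called 0 of 12538 genes (0%) at an adjusted p under 0.05; the lowest adjusted p was 0.110, and 210 genes had an unadjusted p under 0.05. With a Tet2 by Ezh2 term the count was 28. It was 30 without either the wild-type or the Tet2 knockdown GMP array, and 60 without either the Ezh2-null or the double mutant GMP array; in those fits all genes shared 1 spread. HoxA genes had medians of -0.30 and -0.12 in the Ezh2 wild-type and Ezh2-null LSK pairs, against -0.40 and -0.39 in GMPs. Over all genes the LSK medians were 0.18 and -0.11, so the HoxA median of the Ezh2-null LSK pair was near that of all genes. Lgals3 had LSK differences of 0.24 and 0.47 and Adgre1 of 0.82 and 1.97, whereas Pld4 had -0.15 and -0.12 and Ctss -0.15 and -0.14. Adgre1 read -5.57, -4.75, -6.27 and -4.30 in wild-type, Tet2 knockdown, Ezh2-null and double mutant LSK cells. All but the last lay below the lowest signal well above background, so the sizes of its LSK differences were not measured. Monocyte genes had LSK medians of -0.12 and 0.31, and mast cell, basophil and eosinophil genes -0.49 and -0.12, the last again near that of all genes.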

How the data were processed

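Cy3-labelled RNA of sorted mouse cells was measured on 12 one-colour Agilent arrays of 62976 spots. Per the file headers, Feature Extraction 10.7.1.1 made the scanner files; their processed signal, a linear intensity with background already corrected, was used as deposited, and the flags for background, saturation and outliers are recorded as other. The authors' deposited value table held the same intensity at every spot. Log2 of the deposited processed signal minus the array's 75th percentile over 59305 gene spots was computed here. That percentile ran from 194.8 to 245.0 on the 4 arrays. Spots of a probe were averaged without outlier spots, and 143 probes flagged on an array were left out. The replicate-probe coefficient of variation was 4.53 to 5.31%, and the number of arrays limits the precision.

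The files do not pair probes with symbols. Of 55681 probes, 26762 matched 1 symbol of a RefSeq table (GRCm38.p6, names only), 0 several and 28919 none, giving 20284 symbols. The brightest probe per gene was used; 12538 genes passed, being well above background on 2 or more of the 4. Tests used limma 3.58.1 under R 4.3.3 (two-sided, Ezh2 genotype as covariate, prior degrees of freedom 2.77), adjusted by Benjamini-Hochberg. The script was tested on simulated data. Promoters came from RefSeq.

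The comparison, its members and the gene lists were chosen with earlier results of these data known. Genes were named by a rule: Tet2, then 12 per direction with the largest smaller-of-2-pair difference, an ordinary symbol and both brighter arrays well above background, then up to 4 members per list. Alternatives covered background correction, normalization, filters, probes, models and each array left out. The fits of the 4 GMP arrays with an array left out had no Ezh2 term. Normexp used the median signals, an intensity the authors deposited, with an offset of 50. Slide was not a block, since the 8 arrays without disease shared 1 slide.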

Additional observations from a re-analysis of the deposited data

Results flagged for a closer look

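Among 86 of the genes named in the report, 9 had GMP pairs of one sign and LSK pairs of the other. Every pair of one cell type thus went against every pair of the other. The 86 leave out the GMP markers, Ly6a and Xist, among others. Of all genes, 27.5% were higher and 21.0% lower in both GMP pairs, and 16.8% and 17.1% in both LSK pairs. The share of all genes with such opposite signs was not counted, so the 9 are not read as an excess. Ankrd33b differed by -1.65 and -2.02 in the GMP pairs and by 0.04 and 0.49 in the LSK pairs, a GMP minus LSK difference of -2.10 (SE 0.34). Tet3 differed by -0.27 and -0.09 in the GMP pairs and by 0.20 and 0.06 in the LSK pairs, a GMP minus LSK difference of -0.31 (SE 0.31). Ogt differed by 0.18 and 0.25 in the GMP pairs and by -0.21 and -0.61 in the LSK pairs, a GMP minus LSK difference of 0.62 (SE 0.32). Pld4 differed by 0.57 and 1.00 in the GMP pairs and by -0.15 and -0.12 in the LSK pairs, a GMP minus LSK difference of 0.92 (SE 0.33). Ctss differed by 0.51 and 0.48 in the GMP pairs and by -0.15 and -0.14 in the LSK pairs, a GMP minus LSK difference of 0.64 (SE 0.31). Treml1 differed by -0.68 and -0.71 in the GMP pairs and by 0.16 and 0.25 in the LSK pairs, a GMP minus LSK difference of -0.90 (SE 0.31). H2-Ab1 differed by -0.46 and -0.27 in the GMP pairs and by 0.84 and 0.27 in the LSK pairs, a GMP minus LSK difference of -0.92 (SE 0.34). Il10ra differed by 0.57 and 0.59 in the GMP pairs and by -0.17 and -0.06 in the LSK pairs, a GMP minus LSK difference of 0.70 (SE 0.31). Ifngr2 differed by 0.27 and 0.28 in the GMP pairs and by -0.04 and -0.27 in the LSK pairs, a GMP minus LSK difference of 0.43 (SE 0.31). The difference between cell types was tested for each by limma's interaction term, with adjusted p from 0.876 to 1.00, so none passed. These 9 genes are given as values.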

How the results depend on the processing

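The count of genes past the threshold was 0 with limma on the 4 GMP arrays and stayed 0 under quantile scaling, the deposited value table, each filter on dim probes, the mean of a gene's probes, no Ezh2 term and each array left out. It was 1 with normexp (Tet2), 1 with a trended, robust spread (Tet2), 3 in the 8-array fit and 85 with a Tet2 by Ezh2 term. The Tet2 difference passed with normexp (-1.88) and, at -2.36, with the trended, robust spread and with the Tet2 by Ezh2 term; without each array it lay between -2.55 and -2.18. Genes at least 2-fold higher and lower in both pairs, 17 and 20, were 1 and 1 with normexp and 4 and 7 when all 4 arrays had to be well above background, which tests fewer genes; with 1 array left out, and so 1 pair, they were 147 to 156 and 186 to 244. Genes past the threshold for GMP minus LSK numbered 28 with a Tet2 by Ezh2 term and 0 to 60 with each array left out. Without each array in turn, Epop ran from -0.044 to 0.57, Ifi27l2a from -0.28 to 1.39, Rhob from -0.090 to 0.82, Dusp2 from -0.056 to 1.27, Ier2 from -0.22 to 1.35 and Rnase2a from -3.37 to 0.28. These fits on the GMP arrays had no Ezh2 term. In each, 1 array entered without its partner, so the Tet2 difference took in part of the Ezh2 difference. How much of each reversal this made was not tested. These alternatives were run gene by gene for 86 of the genes described here, which leave out the GMP markers, and no other gene of the 86 reversed. No paired analysis was possible because the labels carry no replicate numbers; the pairing by Ezh2 genotype is the covariate of the model. Quantile scaling moved the share of genes with a positive difference from 54.2 to 48.7%, so small list medians have no settled sign. With 1 array per genotype, no value here separates genotype from mouse.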
